A study of Rattus norvegicus with 12 samples.

Results

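Expression of 10 genes that mark macrophages, monocytes and other leukocytes was followed in the renal cortex of 12 male Zucker rats. The 10 genes (Cd68, Cd163, Csf1r, Adgre1, Mrc1, Lyz2, Itgam, Ptprc, Tyrobp and Aif1) were listed by name, with earlier results of these data known, and all 10 had a row among the 13151 genes of the deposited table. Cd163 fell short of the filter (a normalised read count of 1 or more in 4 or more rats), and the other 9 were tested among 11633 genes. Each of the 3 groups held 4 rats aged 32 weeks. ZL rats were lean Zucker controls, and ZF rats were obese Zucker fatty rats, which lack a working leptin receptor in every tissue. ZF-SGLT2i rats were ZF rats given canagliflozin, an inhibitor of the sodium-glucose cotransporter SGLT2, mixed into the food at 10 mg/kg per day, from the age of 24 weeks and over 8 weeks. The design asked how the obese kidney differed from the lean one and whether SGLT2 inhibition changed it. According to the study's methods the kidneys were rinsed with cold saline before harvest. The only ZL rats described there underwent earlier kidney biopsies, as did the ZF rats followed beside them. No biopsy is described for the ZF rats of the treatment study. The labels do not say from which set the sequenced ZF rats came. A figure legend calls them both ZF and ZF-NT, and ZF-NT is the untreated group of the treatment study. The part of earlier biopsies in the values was not tested. In the ZF and ZF-SGLT2i rats the working leptin receptor is missing from leukocytes as well, so obesity and receptor loss in a given cell type cannot be told apart.

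Macrophages live in the kidney interstitium in the healthy animal and are joined by blood monocytes when the tissue is injured. They depend on the growth factors M-CSF (Csf1) and interleukin 34 (Il34), which both bind the receptor encoded by Csf1r, and many of their activating receptors signal through the adaptor DAP12, the product of Tyrobp. Ptprc (CD45) is carried by all nucleated blood cells, and Itgam (CD11b) by monocytes, macrophages, neutrophils and natural killer cells. Adgre1 (F4/80) and Cd68 are widely used to count macrophages in tissue sections, whereas Mrc1 (CD206) and Cd163 are scavenger receptors of resident and reparative macrophages.

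The libraries held 8824980 to 12210257 reads on the 13151 genes of the deposited table. Values are read counts scaled by the authors for library size and are given as CPM; 1 read was worth 0.0855 to 0.113 CPM. Lrp2, the endocytic receptor megalin of the proximal tubule, stood between 5057 and 11361 CPM, so a defining gene of the labelled tissue was abundant. The summed level of the marker genes was 214 ± 32.7 CPM (SD, n = 4) in ZL rats, 310 ± 61.3 CPM in ZF rats and 264 ± 85.9 CPM in ZF-SGLT2i rats, and Lyz2 took the most reads of the 10 in every rat. In RNA from whole cortex, a change in the number of myeloid cells and a change in RNA per cell cannot be told apart.

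Promoters of 8 of the 10 genes were found in the RefSeq table of the rat assembly GRCr8. The windows of Ptprc, Cd68 and Lyz2 are shown because these genes had the smallest adjusted p-values in the comparisons with ZF rats. Each runs 5′ to 3′ on the gene's strand, from 250 bases before to 50 bases after the start of the gene. They lie at chr13:52259697-52259996 (Ptprc), chr10:54882392-54882691 (Cd68) and chr7:54797962-54798261 (Lyz2), all on the minus strand. Capitals mark GAGGAA, the core of the sites bound by PU.1, the lineage factor of myeloid cells, and GGAAGT, a word common to the wider ETS family, on either strand (TTCCTC and ACTTCC when reversed). The words share GGAA and can overlap.
Ptprc: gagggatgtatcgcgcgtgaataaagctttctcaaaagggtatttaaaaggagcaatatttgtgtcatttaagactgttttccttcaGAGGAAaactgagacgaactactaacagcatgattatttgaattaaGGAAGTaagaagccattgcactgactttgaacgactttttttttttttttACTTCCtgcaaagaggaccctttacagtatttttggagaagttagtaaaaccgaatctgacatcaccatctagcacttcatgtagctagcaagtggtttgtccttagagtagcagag
Cd68: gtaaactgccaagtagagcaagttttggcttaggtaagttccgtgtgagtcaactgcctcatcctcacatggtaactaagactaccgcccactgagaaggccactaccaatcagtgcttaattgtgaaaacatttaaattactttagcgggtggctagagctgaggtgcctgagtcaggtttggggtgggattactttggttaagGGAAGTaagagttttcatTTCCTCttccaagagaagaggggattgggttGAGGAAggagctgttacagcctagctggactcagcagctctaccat
Lyz2: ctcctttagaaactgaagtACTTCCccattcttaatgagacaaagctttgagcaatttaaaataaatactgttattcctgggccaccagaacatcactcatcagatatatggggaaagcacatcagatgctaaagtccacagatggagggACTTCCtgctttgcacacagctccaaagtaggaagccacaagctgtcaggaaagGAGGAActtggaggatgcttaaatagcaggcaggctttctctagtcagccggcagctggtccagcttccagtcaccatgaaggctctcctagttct
All 3 windows held both words. GAGGAA was present in 7 of the 8 windows and in 27.6% of all 33469 promoters of this length, and GGAAGT in 4 of the 8 and in 22.6% of all. The Cd163 window held neither. These matches describe letters in a window and were not set against any binding data.

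The values of the 10 genes in each rat are plotted first.

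**Figure D1:**
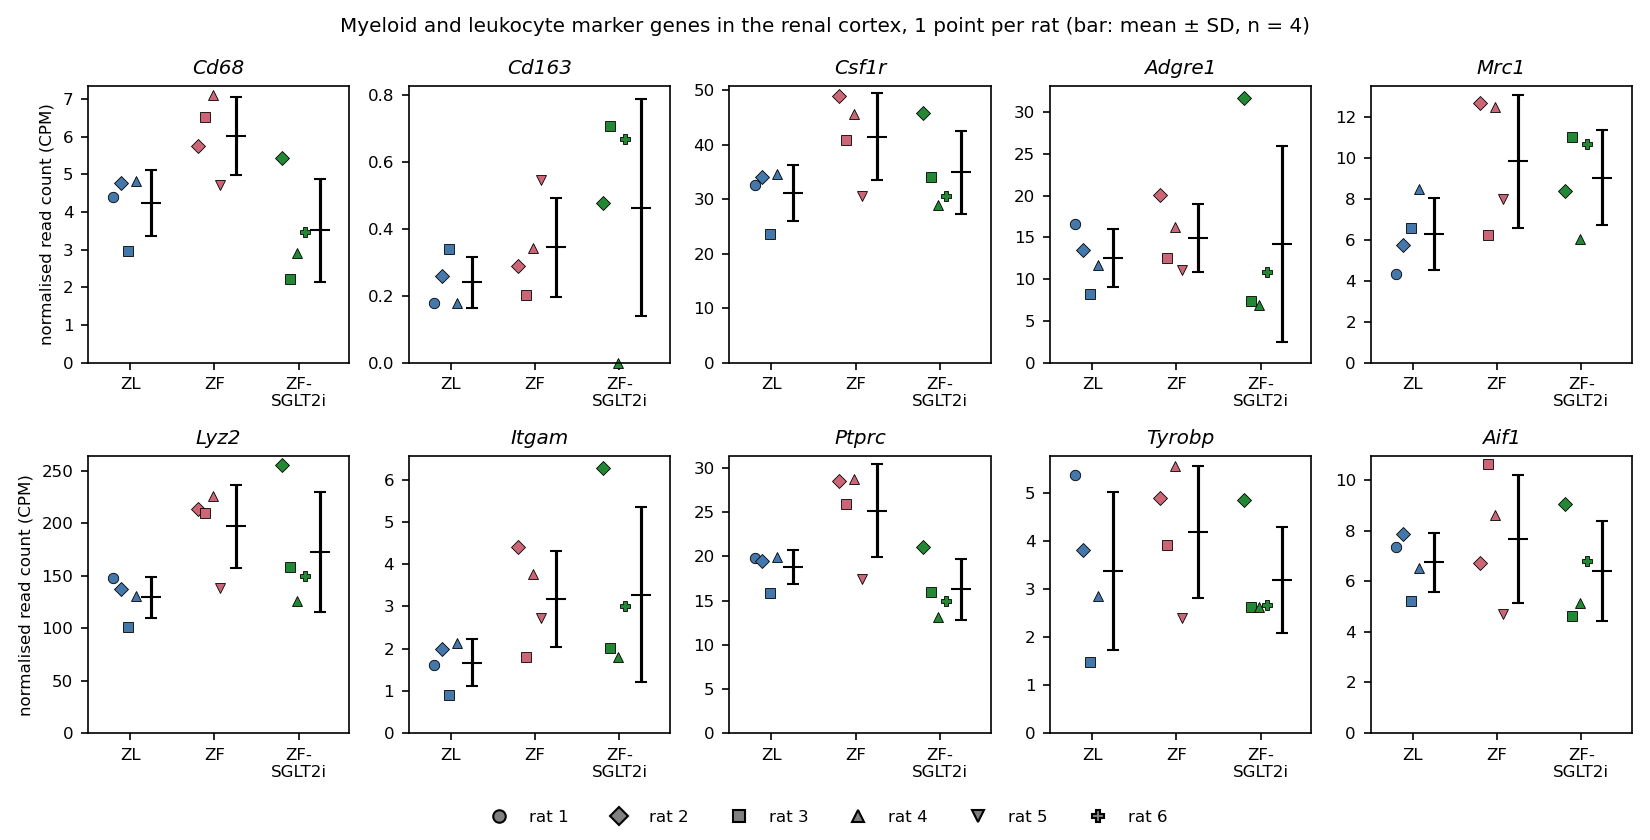
Normalised read count (CPM, y axis) of the 10 marker genes in each rat of the ZL, ZF and ZF-SGLT2i groups (x axis); symbols give the rat number and black bars the mean ± SD of 4 rats. ZF-SGLT2i rat 2 was the highest of its group for 8 of the 10 genes, and the groups overlapped for every gene.

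Ptprc, the general leukocyte gene, was measured at 19.8, 19.4, 15.9 and 19.9 CPM in ZL rats 1, 2, 3 and 4, at 28.5, 26.0, 28.7 and 17.5 CPM in ZF rats 2, 3, 4 and 5, and at 21.0, 15.95, 13.1 and 14.9 CPM in ZF-SGLT2i rats 2, 3, 4 and 6. ZF rats 2, 3 and 4 lay above all ZL and all ZF-SGLT2i rats, and ZF rat 5 fell among both. By group the mean was 18.8 ± 1.94 CPM in ZL rats, 25.2 ± 5.26 in ZF rats and 16.3 ± 3.41 in ZF-SGLT2i rats (SD, n = 4).

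Cd68, a glycoprotein of macrophage lysosomes, stood in the same rats at 4.40, 4.77, 2.95 and 4.82 CPM (ZL), 5.75, 6.51, 7.09 and 4.70 CPM (ZF) and 5.43, 2.22, 2.92 and 3.46 CPM (ZF-SGLT2i), which rests on 22 to 83 reads per rat. Again ZF rats 2 to 4 exceeded every ZL and ZF-SGLT2i rat, while ZF rat 5 lay below ZL rats 2 and 4 and below ZF-SGLT2i rat 2. Lyz2, the lysozyme of macrophages and neutrophils, was measured at 148, 137, 101 and 130.3 CPM in ZL rats, 213, 209.6, 226 and 138 CPM in ZF rats and 256, 158, 126 and 149 CPM in ZF-SGLT2i rats. For Lyz2 the highest rat of all was treated, ZF-SGLT2i rat 2, and ZF rats 2 to 4 lay above all ZL rats. Lyz2 has a neighbouring lysozyme gene, Lyc2, which carries Lyz2 as a synonym; Lyc2 had at most 4 reads in any rat, and how reads shared between the pair were divided is uncertain.

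Csf1r, the M-CSF receptor, stood at 32.6, 34.0, 23.6 and 34.7 CPM in ZL rats, 48.9, 40.9, 45.6 and 30.5 CPM in ZF rats and 45.9, 34.1, 29.0 and 30.7 CPM in ZF-SGLT2i rats. ZF rats 2 to 4 lay above the ZL rats, and ZF-SGLT2i rat 2 lay within their range. Itgam, the integrin chain of phagocytes, was measured at 1.62, 1.99, 0.907 and 2.14 CPM in ZL rats, 4.41, 1.80, 3.76 and 2.73 CPM in ZF rats and 6.28, 2.02, 1.81 and 3.01 CPM in ZF-SGLT2i rats, from 8 to 66 reads. ZF rats 2, 4 and 5 exceeded every ZL rat, and here it was ZF rat 3 that fell among them. Mrc1, the mannose receptor, stood at 4.31, 5.72, 6.58 and 8.49 CPM in ZL rats, 12.7, 6.21, 12.5 and 7.98 CPM in ZF rats and 8.38, 11.0, 6.04 and 10.7 CPM in ZF-SGLT2i rats. Mrc1 did not follow the other genes from rat to rat: ZF-SGLT2i rat 2 ranked below 2 of its group mates and ZL rat 3 above 2 of its own. Mrc1 is also carried by lymphatic endothelium.

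Adgre1, the F4/80 antigen, was measured at 16.6, 13.5, 8.28 and 11.7 CPM in ZL rats, 20.1, 12.5, 16.2 and 11.0 CPM in ZF rats and 31.7, 7.37, 6.94 and 10.8 CPM in ZF-SGLT2i rats. The single rat at 31.7 CPM moved the treated mean to 14.2 ± 11.8 CPM, although the other 3 treated rats lay below all ZF rats. Tyrobp, the DAP12 adaptor, also had 1 high treated rat, with 5.38, 3.81, 1.47 and 2.86 CPM in ZL rats, 4.89, 3.91, 5.56 and 2.40 CPM in ZF rats and 4.86, 2.62, 2.62 and 2.68 CPM in ZF-SGLT2i rats. Aif1 (IBA1), an actin-binding protein of macrophages and microglia, stood at 7.36, 7.89, 5.22 and 6.52 CPM in ZL rats, 6.71, 10.6, 8.63 and 4.70 CPM in ZF rats and 9.05, 4.64, 5.13 and 6.80 CPM in ZF-SGLT2i rats, with wide overlap of the 3 groups.

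Cd163, the haemoglobin scavenger receptor, was close to the limit of detection. ZL rats had 2 or 3 reads, ZF rats 2 to 5, and ZF-SGLT2i rats 5, 7, 0 and 6. A count of 0 in ZF-SGLT2i rat 4 allows a level of up to 0.302 CPM (3 reads, counting error only). With no filter on low values Cd163 differed by 0.11 ± 0.16 (log2, SE; limma adjusted p = 0.68) in ZF against ZL rats, by 0.10 ± 0.16 (0.82) in ZF-SGLT2i against ZF rats and by 0.21 ± 0.16 (0.36) in ZF-SGLT2i against ZL rats, all from these few reads.

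In ZF against ZL rats, all 9 tested genes had the higher estimate in ZF, but none passed the test (limma, adjusted p of 0.05). On the log2(value + 1) scale they ran from 1.09-fold for Aif1 to 1.55-fold for Itgam. The background was 18.8% of 11633 genes called, 8.19% higher and 10.6% lower. The difference of Lyz2 was 0.59 ± 0.20 on the log2(value + 1) scale (SE; 1.51-fold, limma adjusted p = 0.053), and those of Itgam and Mrc1 were 0.63 ± 0.29 (adjusted p = 0.15) and 0.55 ± 0.24 (adjusted p = 0.12). Cd68 differed by 0.43 ± 0.20, Csf1r by 0.39 ± 0.17 and Ptprc by 0.38 ± 0.16, with limma adjusted p of 0.15, 0.12 and 0.11. Tyrobp (0.28 ± 0.28), Adgre1 (0.24 ± 0.37) and Aif1 (0.13 ± 0.22) differed by no more than about their standard errors. These values moved with the fit: Tyrobp ranged from 0.037 without ZL rat 3 to 0.68 with the replicate number as a block (adjusted p = 0.077), Adgre1 from 0.076 to 0.51 under the same settings, and Aif1 from -0.032 to 0.35 over all alternatives, over which Itgam ranged from 0.48 to 0.93. This scale understates the change of low genes such as Itgam, whose mean was 1.67 ± 0.552 CPM in ZL and 3.18 ± 1.15 CPM in ZF rats.

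The median difference of the 9 genes was 0.39 (log2), beside -0.0077 over all genes, of which 48.4% were higher in ZF. Apart from Mrc1, the genes varied together from rat to rat, so their shared sign is not 9 separate observations. Without adjustment 5 of the 9 had p under 0.05 by limma, as did 33.1% of all genes. edgeR and DESeq2, run on read counts recovered from the values, each called 1 of the genes, Lyz2 (adjusted p = 0.049 and 0.017). Lyz2 was also called after quantile normalization, with only the 2 groups compared and with the replicate block, which called Ptprc as well. The calls also turned on single rats: without ZF rat 5, limma called Lyz2 (adjusted p = 0.022), Ptprc (0.020) and Csf1r (0.041). Leaving out ZF-SGLT2i rat 2 (0.020) or rat 4 (0.046), whose spread enters the shared error, also gave a limma call of Lyz2. No gene of the 9 had groups free of overlap, as 19.0% of all genes did.

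In ZF-SGLT2i against ZF rats, all 9 estimates were lower in the treated rats and again none passed (background 3.15% called, 1.39% higher and 1.75% lower). Ptprc differed by -0.60 ± 0.16 (log2, SE), which is 0.662 of the ZF level with a 95% confidence interval from 0.522 to 0.839 (limma adjusted p = 0.061). Cd68 differed by -0.67 ± 0.20, or 0.627 of the ZF level with an interval from 0.465 to 0.844 (adjusted p = 0.090). Both shares are on the log2(value + 1) scale, which understates the change of low genes. The Cd68 means were 3.51 CPM in ZF-SGLT2i and 6.02 CPM in ZF rats. Estimates for Adgre1 (-0.30 ± 0.37), Tyrobp (-0.30 ± 0.28), Csf1r (-0.24 ± 0.17), Lyz2 (-0.22 ± 0.20) and Aif1 (-0.22 ± 0.22) had limma adjusted p between 0.49 and 0.73. These values moved with single rats, though none was called under any alternative. Adgre1 became -0.76 (adjusted p = 0.12) and Lyz2 -0.42 (0.22) without ZF-SGLT2i rat 2, against -0.078 and -0.086 without ZF-SGLT2i rat 4. Over all alternatives Tyrobp ranged from -0.49 to -0.17, Csf1r from -0.38 to -0.16 and Aif1 from -0.44 to -0.057. Mrc1 (-0.09 ± 0.24) and Itgam (-0.03 ± 0.29) were the closest to 0, and their intervals reached from -0.60 to 0.42 and from -0.65 to 0.59. Both comparisons use the same ZF rats, so a chance high or low ZF value enters both with opposite sign.

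The median of the 9 differences was -0.24, beside 0.0064 over all genes. Unadjusted p was under 0.05 for 2 of the 9 (Ptprc and Cd68) and for 17.2% of all genes, and edgeR called 0 and DESeq2 1 (Ptprc, adjusted p = 0.010). Leaving out ZF-SGLT2i rat 2 made the Cd68 difference -0.86 (limma adjusted p = 0.027) and that of Ptprc -0.72 (0.032), and both were then called. Leaving out ZF rat 5 made the Ptprc difference -0.75 (0.0077). With array quality weights Cd68 and Ptprc were also called, and with the replicate block Ptprc. None of the 9 was free of overlap between ZF and ZF-SGLT2i rats, as 11.2% of all genes were.

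In ZF-SGLT2i against ZL rats, 4 genes were higher and 5 lower and none passed (background 27.4% called, 12.4% higher and 15.0% lower, and 28.0% of genes without overlap). Itgam (0.60 ± 0.29), Mrc1 (0.46 ± 0.24) and Lyz2 (0.37 ± 0.20) had estimates above the lean level, with limma adjusted p of 0.14, 0.16 and 0.18. Cd68 (-0.25 ± 0.20) and Ptprc (-0.21 ± 0.16) had estimates below it, with adjusted p of 0.39 and 0.35. Csf1r (0.15 ± 0.17), Tyrobp (-0.01 ± 0.28), Adgre1 (-0.06 ± 0.37) and Aif1 (-0.09 ± 0.22) lay within about 1 standard error of no difference. Alternatives moved Itgam between 0.31 and 0.98, Mrc1 between 0.24 and 0.65, Lyz2 between 0.17 and 0.51, Cd68 between -0.43 and -0.10, Ptprc between -0.33 and -0.12 and Csf1r between 0.015 and 0.23. Unadjusted p was under 0.05 for 0 of the 9 by limma and for 39.3% of all genes. Both edgeR and DESeq2 also called 0, whereas limma with array quality weights called Mrc1 (0.65, adjusted p = 0.044).

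**Figure D2:**
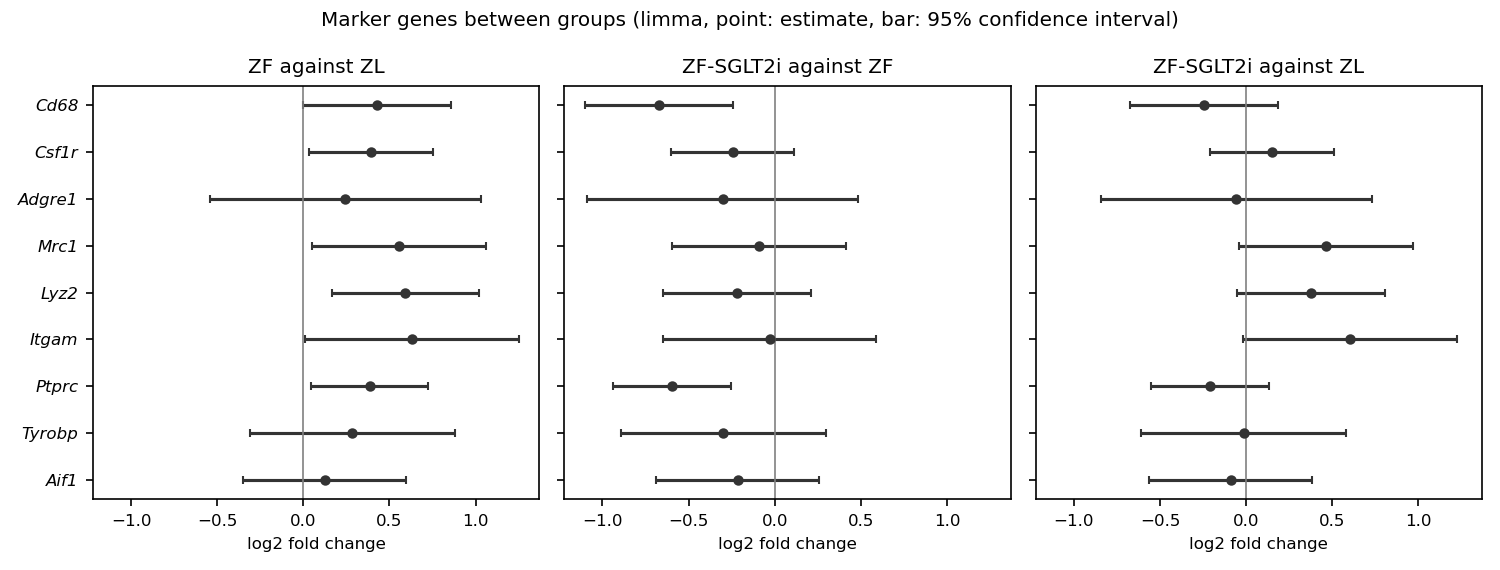
Log2 fold change (x axis, log2(value + 1) scale) of the 9 tested genes (y axis) in the 3 comparisons; points are limma estimates and bars 95% confidence intervals. In ZF against ZL rats all points lie above 0, in ZF-SGLT2i against ZF rats all lie below it, and the intervals of Ptprc and Cd68 in the second comparison end at -0.25 and -0.24.

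The order of the group means differed between genes. ZF was highest for Ptprc, Cd68, Csf1r, Lyz2, Mrc1, Adgre1, Tyrobp and Aif1, whereas Itgam stood at 3.28 ± 2.07 CPM in ZF-SGLT2i and 3.18 ± 1.15 CPM in ZF rats. ZF-SGLT2i was lowest for Ptprc, Cd68, Tyrobp and Aif1, and ZL for Csf1r, Lyz2, Mrc1, Adgre1 and Itgam. For Adgre1 the mean placed ZF-SGLT2i rats above ZL rats (14.2 against 12.5 CPM), but the median placed them below (9.09 against 12.6 CPM). No neighbouring pair in these orders differed beyond its spread at an adjusted p of 0.05.

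**Figure D3:**
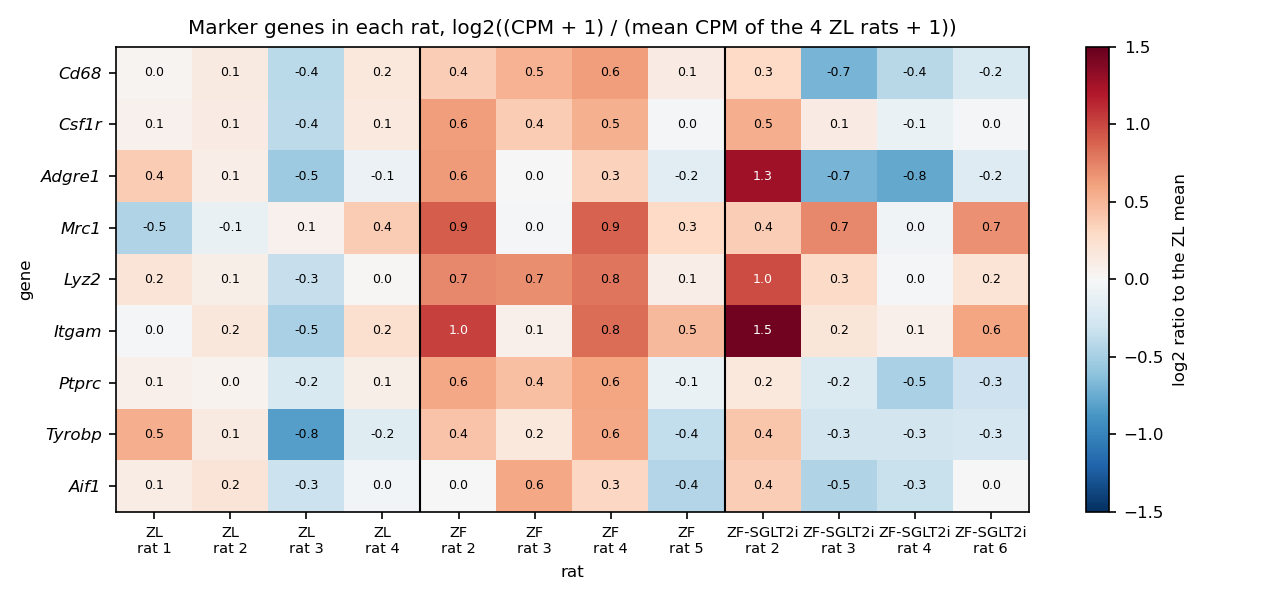
Log2 ratio of each rat's value to the ZL mean (colour and printed value, with 1 CPM added to both) for the 9 tested genes (rows) in the 12 rats (columns). ZF-SGLT2i rat 2 is above 0 for all 9 genes, ZF rat 5 is below ZF rats 2 and 4 for all 9, and ZL rat 3 is blue for every gene except Mrc1.

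The same rats stood high or low for many of the genes. The median log2 ratio of the 9 genes to the ZL mean was 0.63, 0.38 and 0.59 in ZF rats 2, 3 and 4 and -0.03 in ZF rat 5. In ZF-SGLT2i rats it was 0.42 in rat 2 and -0.22, -0.28 and -0.02 in rats 3, 4 and 6. ZF-SGLT2i rat 2 was the highest of its group for 8 of the 10 genes and for 13 of 15 further leukocyte genes, beside 22.5% of all tested genes. ZF-SGLT2i rat 4 was the lowest for 8 of the 10, for 7 of the 15 further genes and for 26.4% of all. In the other groups ZF rat 5 was lowest for 7 of the 10 (12 of the 15 further genes, 29.2% of all) and ZL rat 3 for 8 of the 10 (12 of the 15, 27.5% of all).

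ZL rat 3 and ZF rat 5 also had the fewest reads of their groups, 8886901 and 8824980. ZF-SGLT2i rat 6 had the fewest of its own, 8914666, and was lowest for 0 of the 10 genes, for 5 of the 15 further leukocyte genes and for 29.9% of all. Ribosomal RNA genes took 7.25% of the scaled counts in ZL rat 3 against 10.0% to 12.0% in the other ZL rats. They took 11.2%, 12.0%, 8.82% and 11.8% in ZF rats 2, 3, 4 and 5. In ZF-SGLT2i rats 2, 3, 4 and 6 they took 12.0%, 14.3%, 11.5% and 15.2%. The part of depth and of the ribosomal RNA share in the marker values was not tested.

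Over the 12 rats, with group means taken off, 36 pairs of the 9 genes were compared as a description; the rats share depth and scaling. Lyz2 and Ptprc varied together (Pearson r = 0.96), as did Csf1r and Ptprc (0.96), Csf1r and Lyz2 (0.93) and Adgre1 and Itgam (0.89). Mrc1 stood apart, with r from -0.16 (Aif1) to 0.41 (Itgam). The genes outside the list were ranked over the 12 rats with group means left in, so differences between groups enter these r. Genes among the closest to Ptprc were Cd53 (r = 0.97) and Prkcb (0.95). Cd68 was closest to Lcp1 (0.94), Psmb10 (0.94) and Uhrf1 (0.93), and Lyz2 to Ncf1 (0.94), Parvg (0.94) and Cd4 (0.93). Csf1r ran with Parvg (0.95), Tubb5 (0.95) and Ccl19 (0.94), Adgre1 with Map4k1 (0.95), C3 (0.94) and Prex1 (0.87), and Itgam with Tnfaip8l2 (0.96), Naaa (0.88) and Cxcl13 (0.87). Mrc1 was closest to Capg (0.90), Reln (0.89) and Scara3 (0.87), Tyrobp to Rap2a (0.90), Bcl2a1 (0.88) and Cdk1 (0.88), and Aif1 to Mcm3 (0.84), Lsm11 (0.83) and Exosc7 (0.83). With group means taken off the closest genes differed in part, such as Prkcb (0.98), Laptm5 (0.96) and Itgb2 (0.95) for Ptprc and Cd4 (0.97), Lcp1 (0.96) and Coro1a (0.96) for Lyz2.

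Further genes of macrophage biology passed the test where the 10 markers did not. In the list of the M-CSF axis and its lineage factors, 4 of 10 genes rose in ZF against ZL rats and 0 fell (8.19% and 10.6% of all genes). Csf1, the M-CSF ligand, rose by 0.48 ± 0.10 (log2, SE; limma adjusted p = 0.0065) and Runx1, a blood lineage factor, by 0.86 ± 0.13 (adjusted p = 0.0010), and both held without any one rat. Cebpa rose by 0.38, a call lost without ZL rat 4 or ZF rat 3. The list held 2 calls without ZF rat 3 and 3 to 5 without any other 1 rat. Against ZF rats, treated rats showed 1 call of the 10 (1.39% of all genes rose and 1.75% fell), a rise of Cebpb by 0.75 ± 0.17 (adjusted p = 0.028), which was lost without any one of 6 rats, ZF-SGLT2i rat 2 among them, without which 0 of the 10 were called. Maf, the gene of the list with the most reads, did not pass (-0.30 ± 0.15, adjusted p = 0.34).

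Of 12 tested genes of DAP12 and Fc receptor signalling, 3 rose in ZF rats and 0 fell, beside 8.19% and 10.6% of all genes. These were the kinase Lyn (0.42 ± 0.07, limma adjusted p = 0.0012), the inhibitory receptor Sirpa (0.30 ± 0.08, 0.023) and the glucan receptor Clec7a (0.55 ± 0.15, 0.023). Lyn held without any one rat, Sirpa was lost without any one of 4 and Clec7a without any one of 5. Sirpa fell by 0.33 ± 0.08 in treated against ZF rats (adjusted p = 0.045), a call that held in 3 of 12 fits that left out a rat and stands beside 1.75% of all genes that fell. In ZF against ZL rats the list held 1 call without ZL rat 3, ZL rat 4 or ZF rat 2, and in treated against ZF rats 2 without ZF rat 5. The kinase Syk did not pass in either comparison (0.33 and -0.28).

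Among 12 tested genes of complement C1q and resident macrophages, 3 rose in ZF rats (8.19% of all genes). Axl, a receptor for dying cells, rose by 0.91 ± 0.15 (limma adjusted p = 0.0017), its ligand Gas6 by 0.26 ± 0.08 (0.033) and the endotoxin co-receptor Cd14 by 0.57 ± 0.15 (0.017). Axl held without any one rat, Cd14 was lost without ZF rat 2 and Gas6 without any one of 6. Against ZF rats 0 of the 12 were called in treated rats; Apoe, with the most reads, differed by -0.46 ± 0.14 (adjusted p = 0.096). The list held 1 call in ZF against ZL rats without ZF rat 2. In treated against ZF rats 3 of the 12 fell without ZF rat 5 and 1 without ZL rat 4.

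In the list of monocyte recruitment and inflammatory macrophage genes, 4 of 12 rose in ZF rats (8.19% of all genes). Spp1 (osteopontin) rose by 1.98 ± 0.47 (adjusted p = 0.011, limma), Gpnmb by 1.54 ± 0.31 (0.0046) and the tetraspanin Cd9 by 0.51 ± 0.11 (0.0066), each without any one rat as well. Injured tubules also make Spp1, which stood at 166 to 178 CPM in ZL rats and at 313 to 1473 CPM in ZF rats. In treated against ZF rats the chemokines Cxcl16 (-0.54 ± 0.10, adjusted p = 0.010) and Cx3cl1 (-0.43 ± 0.10, 0.026) fell, 2 of 12 beside 1.75% of all genes, and neither passed in ZF against ZL rats (0.08 and -0.08). The call of Cx3cl1 was lost without any one of 7 rats. ZF-SGLT2i rat 2 was among these, and Cxcl16 was the 1 call left without each of them. Spp1 (-0.42 ± 0.47) and Gpnmb (-0.59 ± 0.31) did not pass in treated rats (adjusted p = 0.70 and 0.35).

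Of 15 shared leukocyte genes, 1 rose in ZF rats and 1 fell in treated rats, beside 8.19% and 1.75% of all genes, and it was Coro1a, an actin regulator of leukocytes, in both (0.54 ± 0.16, limma adjusted p = 0.035, and -0.76 ± 0.16, adjusted p = 0.022). The call was lost without any one of 5 rats in the first comparison and of 6 in the second. In treated against ZF rats 3 of the 15 fell without ZF-SGLT2i rat 2, and 2 without ZF rat 5, ZL rat 3 or ZL rat 4. In ZF against ZL rats 2 rose without ZF rat 5, and without ZL rat 3 the 1 call was a fall. Lcp1 and Laptm5 did not pass (-0.52 ± 0.16, adjusted p = 0.10, and -0.32 ± 0.21, adjusted p = 0.46, in treated against ZF rats). For MHC class II presentation 0 of 8 genes were called in either comparison, and Cd74, the invariant chain, differed by 0.23 and -0.02. Of 12 lysosomal genes that macrophages share with kidney epithelium, 1 rose in ZF rats, the protease inhibitor Cst3 (0.66 ± 0.08, adjusted p = 0.00017), and 0 were called in treated against ZF rats. Without ZF rat 5 the MHC class II list held 1 call in each comparison, and the lysosomal list 2 and 1. The lysosomal list also held 2 calls in ZF against ZL rats without ZL rat 2 or ZF rat 4, and 1 in treated against ZF rats without ZL rat 4. Median differences in ZF against ZL rats were 0.32, 0.35, 0.29, 0.29, 0.24, 0.21 and -0.04 for these 7 lists in the order given, and -0.09, -0.25, -0.15, -0.41, -0.37, -0.14 and -0.08 in treated against ZF rats.

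**Figure D4:**
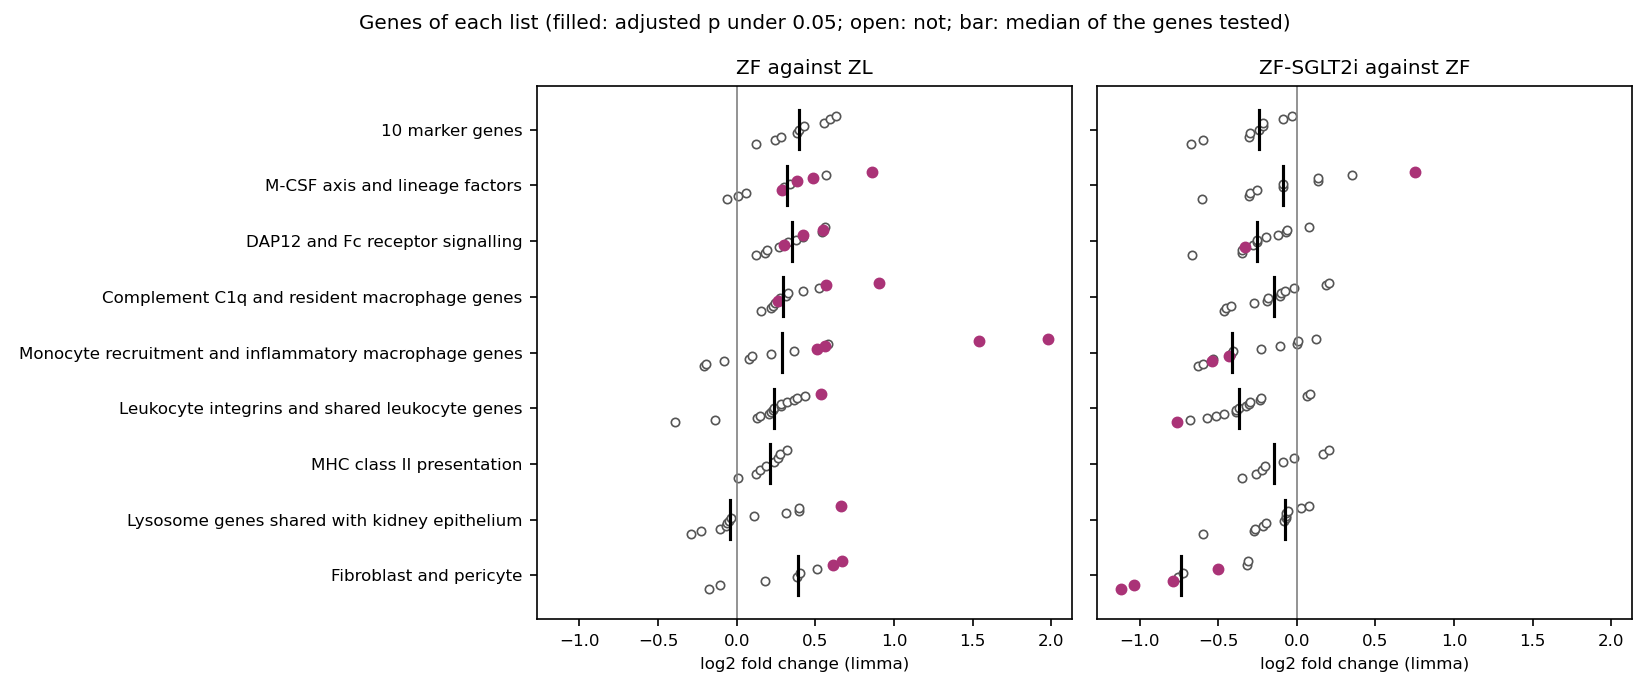
Log2 fold change (x axis) of the genes of 9 lists (y axis) in ZF against ZL rats and in ZF-SGLT2i against ZF rats; filled points passed an adjusted p of 0.05, open points did not, and bars are medians of the tested genes. The 10 marker genes hold no filled point in either panel, and 4 of 8 tested fibroblast and pericyte genes are filled below 0 in the second.

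In treated against ZL rats 12.4% of all genes rose and 15.0% fell. Beside this, 5 of the 10 M-CSF axis genes rose and 0 fell, with 1 and 0 of 12 for DAP12 and Fc receptor signalling and 4 and 0 of 12 for C1q and resident macrophages. In the inflammatory list 4 of 12 rose and 3 fell. Of the shared leukocyte genes 0 of 15 were called, of the MHC class II genes 1 of 8 rose, and of the lysosomal genes 1 rose and 2 fell of 12. The single rises in the DAP12, MHC class II and lysosomal lists were near or below the share of all genes. Genes of tubules, podocytes, lymphatic vessels and fibroblasts also moved in this comparison, as counted with the other cells of the cortex, and their part in the macrophage lists was not tested. The 4 rises of the inflammatory list became 1 without ZF-SGLT2i rat 3 and 2 without ZL rat 1 or ZF-SGLT2i rat 2, and its 3 falls became 2 without ZL rat 1, ZL rat 4, ZF-SGLT2i rat 3 or ZF-SGLT2i rat 6. Without ZL rat 3 or ZF-SGLT2i rat 6 the resident macrophage list held 2 calls, and the leukocyte list held 3 without ZF-SGLT2i rat 2 and 2 without ZL rat 3. The MHC class II list held 2 without ZF-SGLT2i rat 6, and the lysosomal list 4 falls without ZL rat 4 and 2 rises without ZL rat 1 or 2. Runx1 (0.77), Cebpa (0.52), Cebpb (0.81), Lyn (0.35) and Cd9 (0.51) were among those that rose, and Cxcl16 (-0.46), Cx3cl1 (-0.51) and Ctsl (-0.82) among those that fell, each also without any one rat.

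Other blood cells could carry Ptprc, Itgam, Lyz2 or Tyrobp. The T cell receptor genes Cd3d, Cd3e and Cd3g, singled out after their values were seen, stood below 1 CPM in every rat, and Cd3d and Cd3g at 0 in some. The summed level of the 14 lymphocyte genes with a row was 29.0 ± 5.36 CPM in ZL rats, 34.3 ± 5.79 in ZF rats and 26.7 ± 9.11 in ZF-SGLT2i rats (SD, n = 4), most of it Cd4, which rat macrophages also express (12.0 to 30.1 CPM). Without Cd4 the sum was 11.8 ± 1.85 CPM in ZL rats, 11.2 ± 1.22 in ZF rats and 7.37 ± 1.79 in ZF-SGLT2i rats, and 6 of the 14 genes had the higher mean in ZF rats and 8 in ZL rats. With Cd4 the sum was highest of all in ZF rat 4 (40.3 CPM). Within their groups ZF-SGLT2i rat 2 (40.1 CPM) was the highest and ZL rat 3 and ZF rat 5 were the lowest. Of the 5 lymphocyte genes tested 0 were called in both comparisons with ZF rats (18.8% of all genes were called in ZF against ZL and 3.15% in treated against ZF rats), too few genes to set against these shares. Beside 15.0% of all genes, 1 of the 5, Cd2, fell in treated against ZL rats (-0.67 ± 0.19, limma adjusted p = 0.018), a call lost without any one of 3 rats; without ZF rat 5, 3 lymphocyte genes fell there, and 2 without ZL rat 3, ZF rat 2 or ZF-SGLT2i rat 2.

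Neutrophil genes summed to 4.47 ± 0.547, 6.42 ± 1.86 and 4.61 ± 1.97 CPM in the 3 groups, mostly Mmp9, and 0 of 2 tested were called. Of all genes 18.8% were called in ZF against ZL, 3.15% in treated against ZF and 27.4% in treated against ZL rats. The lists of this paragraph hold too few genes to set against these shares. Dendritic cell genes summed to 23.9 ± 2.36, 30.5 ± 1.64 and 27.3 ± 2.85 CPM, led by Zbtb46, with 0 of 4 called, or 1 in ZF against ZL rats without ZL rat 2. The mast cell and eosinophil list held 1 tested gene, Kit, which kidney epithelium also expresses and which rose in treated against ZF rats (0.66 ± 0.09, limma adjusted p = 0.0013). Of 3 erythroid genes 0 were called with all rats. Without ZF-SGLT2i rat 3, 1 rose in ZF and 2 in treated against ZL rats, and 1 rose in treated against ZF rats without ZL rat 2, ZL rat 4 or ZF rat 5. The part of these cells in the marker values was not tested.

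Genes of other cells of the cortex also passed the test. In ZF against ZL rats 6 of 11 injured tubule genes rose, among them Havcr1 (KIM-1; 3.01 ± 0.57, limma adjusted p = 0.0038) and Clu (1.12 ± 0.14, 0.00030), and of 10 proximal tubule genes 1 rose and 3 fell. Podocyte genes rose in 5 of 10, endothelial genes in 2 of 10, lymphatic endothelial genes in 2 of 6, fibroblast and pericyte genes in 2 of 8 and proliferation genes in 2 of 8, with 0 falling in each, beside 8.19% and 10.6% of all genes. Without ZL rat 2, 2 injured tubule genes fell. Several of these counts turned on single rats. The proximal tubule list held 0 calls without ZF rat 3, 1 without ZL rat 1 or ZF rat 5 and 2 to 5 without any other 1 rat. The podocyte list held 2 without ZL rat 1, ZF rat 2 or ZF rat 5 and 3 to 7 otherwise. Endothelial calls were 0 without ZL rat 1, ZL rat 3, ZF rat 2 or ZF rat 3 and 5 without ZL rat 2, and lymphatic calls were 0 without any one of those 4 rats or ZF rat 5 and 1 without ZF-SGLT2i rat 2 or 3. Fibroblast calls ranged from 1 to 3 when 1 rat was left out, with 1 without ZL rat 1, ZL rat 3, ZF rat 2, ZF rat 4, ZF-SGLT2i rat 2 or ZF-SGLT2i rat 3. In treated against ZF rats, where 1.75% of all genes fell, 4 of 8 fibroblast and pericyte genes did so, Col3a1 (-1.03 ± 0.17, adjusted p = 0.0055) and Dcn (-1.11 ± 0.20, 0.0083) among them. Col3a1 and Dcn held without any one rat, whereas Col1a2 and Pdgfrb were each lost without any one of 6, and the list held 2 calls without ZF rat 2, ZF rat 4, ZF-SGLT2i rat 3 or ZF-SGLT2i rat 4. There 2 of 8 proliferation genes, 1 of 11 injured tubule genes and 1 of 10 proximal tubule genes also fell, and 0 podocyte, endothelial or lymphatic genes were called, although 1 endothelial gene fell without ZL rat 2, ZL rat 3 or ZF rat 5. The proliferation list held 0 calls without ZF rat 3, ZF rat 4, ZF-SGLT2i rat 3 or ZF-SGLT2i rat 6, and 1 call when ZF rat 2 was left out, or ZF-SGLT2i rat 4. The injured tubule call was lost without any one of 7 rats, and the proximal tubule call, Slc22a6, held without each. In treated against ZL rats, where 12.4% of all genes rose and 15.0% fell, 6 of 11 injured tubule genes rose and 1 fell, and 5 of 10 podocyte genes rose and 1 fell. There 3 of 6 lymphatic and 2 of 10 endothelial genes rose, 4 of 10 proximal tubule and 3 of 8 fibroblast and pericyte genes fell, and of 8 proliferation genes 1 rose and 1 fell. Of these, lymphatic calls were 1 without ZL rat 3, fibroblast calls 5 without ZL rat 3, and endothelial rises 1 without any one of 7 rats. The proliferation list held 0 calls there without any one of 4 rats, ZL rats 1 and 2 and ZF-SGLT2i rats 3 and 4. Fibroblast genes summed to 651 ± 102, 826 ± 178 and 503 ± 16.96 CPM from lean to obese to treated rats. ZF-SGLT2i rat 2 was the highest of its group here too, at 528 CPM beside 492 to 499 CPM in the other treated rats. For the shared leukocyte genes this rat stood at 227 CPM, beside 151 to 160 CPM in the others.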

How the data were processed

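RNA from the renal cortex was sequenced by the authors from rRNA-depleted paired-end libraries. The submitters' processing notes name Trimmomatic 0.38, RSEM 1.3.0, Bowtie2, edgeR and the build rn6. The authors deposited scaled signal values for 13151 genes and 12 rats. Each value was a whole multiple of the rat's smallest value (100% of values, tolerance 1e-06), so whole reads were recovered by division; for 3 rats this step was 0.100 to 0.101, where rounding would look alike, so count tests served only as alternatives.

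Genes at 1 or more in at least 4 rats were tested with limma 3.58.1 (R 4.3.3) on log2(value + 1), 3 groups in 1 fit, 2-sided, with Benjamini-Hochberg adjustment over 11633 genes. edgeR 4.0.16 (quasi-likelihood) called 2180, 368 and 3216 genes and DESeq2 1.42.0 called 2358, 641 and 3282 for obese against lean, treated against obese and treated against lean rats, and limma called 2185, 366 and 3184. Other pseudocounts, filters, scalings and samples were also tried.

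The 10 genes and the 19 further lists were chosen with earlier results of these data known. From each list the 4 most abundant and the 4 called genes of smallest p could be named, and for each marker the 3 genes of highest r. Some genes that met this rule are not reported here. Names and promoters came from RefSeq (GRCr8), which differs from rn6. Transcript lengths were not used here, so the genes called most abundant are those with the most scaled reads. Nothing beyond separate rats is known of replication, and no batch is labelled. Scripts were tested on simulated data.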

Additional observations from a re-analysis of the deposited data

Results flagged for a closer look

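For each of the 10 genes, the 4 rats of a group were checked for 1 rat far from the others, 30 groups in all, of which chance flags about 1 in 20; 3 stood out. Adgre1 in ZF-SGLT2i rat 2 was 31.7 CPM, beside 6.94 to 10.8 CPM in the other treated rats. Tyrobp in the same rat was 4.86 CPM, beside 2.62 to 2.68 CPM. Ptprc in ZL rat 3 was 15.9 CPM, beside 19.4 to 19.9 CPM in the other ZL rats.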

How the results depend on the processing

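The count of marker genes called in ZF against ZL rats was 0 and became 1 with quantile normalization, with only the 2 groups compared, with edgeR and with DESeq2 (Lyz2 each time), and 0 to 3 when 1 rat was left out. In ZF-SGLT2i against ZF rats it was 0 and became 2 with array quality weights (Cd68 and Ptprc), 1 with DESeq2 (Ptprc) and 0 to 2 when 1 rat was left out. In ZF-SGLT2i against ZL rats it was 0 and became 1 with array quality weights (Mrc1, 0.65, limma adjusted p = 0.044). Numbers of all genes called ranged from 1389 to 2453 and from 176 to 570 when 1 rat was left out in the first and second comparison, and the second gave 689 with array quality weights and 641 with DESeq2. The rat numbers did not pair the rats: correlations of same-numbered rats ran from -0.38 to 0.25, and 1 of 9 pairs was the best match. With a replicate block the calls were 807, 223 and 1502 genes and 2 (Lyz2, Ptprc), 1 (Ptprc) and 0 marker genes in the 3 comparisons.

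Of 193 values of the marker genes under alternatives in each comparison, 1, 12 and 14 changed sign, all for differences smaller than their standard error. Aif1 in ZF against ZL rats ranged from -0.032 to 0.31 over fits that left out 1 rat. In ZF-SGLT2i against ZF rats Mrc1 became 0.055 with array weights and ranged from -0.27 to 0.069 over such fits. Itgam became 0.025 with quantile normalization, 0.059 with array weights, 0.037 with edgeR and 0.042 with DESeq2, and ranged from -0.32 to 0.14. In ZF-SGLT2i against ZL rats Adgre1 became 0.12 with the replicate block, 0.18 with edgeR and 0.19 with DESeq2, and ranged from -0.51 to 0.17. Tyrobp became 0.0065 with a pseudocount of 0.1 and 0.25 with the block, and ranged from -0.26 to 0.19, and Aif1 ranged from -0.25 to 0.029. The cause was not tested. Counts of the further lists without rats were added after seeing the data. Cd163, Itgam and Tyrobp rest on few reads, which limits their precision.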
